A study of Mus musculus with 24 samples.

Results

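The 7 genes described here, Cyp2b9, Cyp2b10, Cyp2d9, Cyp2d26, Cyp2e1, Cyp2j5 and Cyp2j13, encode cytochromes P450 of family 2. They are 7 of the 22911 named genes on the array, which names 40 other Cyp2 genes. They were found by matching the accession of each probe to the gene symbol, which gave 14 probes of 56605. All 7 passed the filter on dim probes, as did 17736 genes in all. The genes were chosen from the values of these same arrays in all 3 groups, so their levels and differences are a description. Their calls in the fit over all genes are counted but support nothing, and p-values are printed only for other genes.

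Kidneys of 24 male mice of the outbred strain Crl:CD1(ICR) were profiled, each on its own Agilent array with a single dye. In the DKD+enarodustat group (n = 9), alloxan at 90 mg/kg was injected into a vein 3 days before grouping and the feed contained 0.01% enarodustat by weight. The DKD group (n = 9; DKD stands for diabetic kidney disease) received the same alloxan dose and normal feed. The Sham group (n = 6) received vehicle and normal feed, and all kidneys were taken 16 days after grouping. Alloxan destroys the insulin-producing beta cells of the pancreas, and the diabetic groups were matched on blood glucose and body weight. Enarodustat stabilises hypoxia-inducible factor (HIF) by blocking the prolyl hydroxylases through which it is broken down. The model is a chemically induced, early diabetes in males of an outbred stock, and whole-kidney RNA was used, in which fewer cells of a type and less RNA per cell cannot be told apart.

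Cytochromes P450 are heme enzymes of the endoplasmic reticulum that insert an oxygen atom into drugs, steroids, solvents and fatty acids, with electrons passed on by the reductase Por and by cytochrome b5. In the kidney they sit mainly in the proximal tubule. The Cyp2b, Cyp2d and Cyp2e enzymes are known mostly for drugs, steroids and small solvents, and the Cyp2j enzymes for turning arachidonic acid into epoxides that act on vessels and on salt transport. Several of these genes differ between male and female mice.

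A level here is the log2 of a probe's signal minus the log2 of the 75th percentile signal on that array (187 to 388), and the level of one gene's probe cannot be set against another's. Between 37716 and 44732 spots per array were well above background, arrays of 1 group correlated at 0.964 to 0.991 across genes, and precision is limited by how few arrays a group holds. A gene is called higher or lower where the Benjamini-Hochberg adjusted p over all 17736 tested genes in 1 limma fit was under 0.05. The arrays lay on 3 slides, each with 3 DKD+enarodustat, 3 DKD and 2 Sham arrays. All DKD+enarodustat arrays lay in row 2 of a slide, 3 DKD arrays in row 2 and 6 in row 1, and all Sham arrays in row 1. The scanner software gave DKD+enarodustat replicate 3 a quality note, and no call on the 7 genes changed without it.

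**Figure D1:**
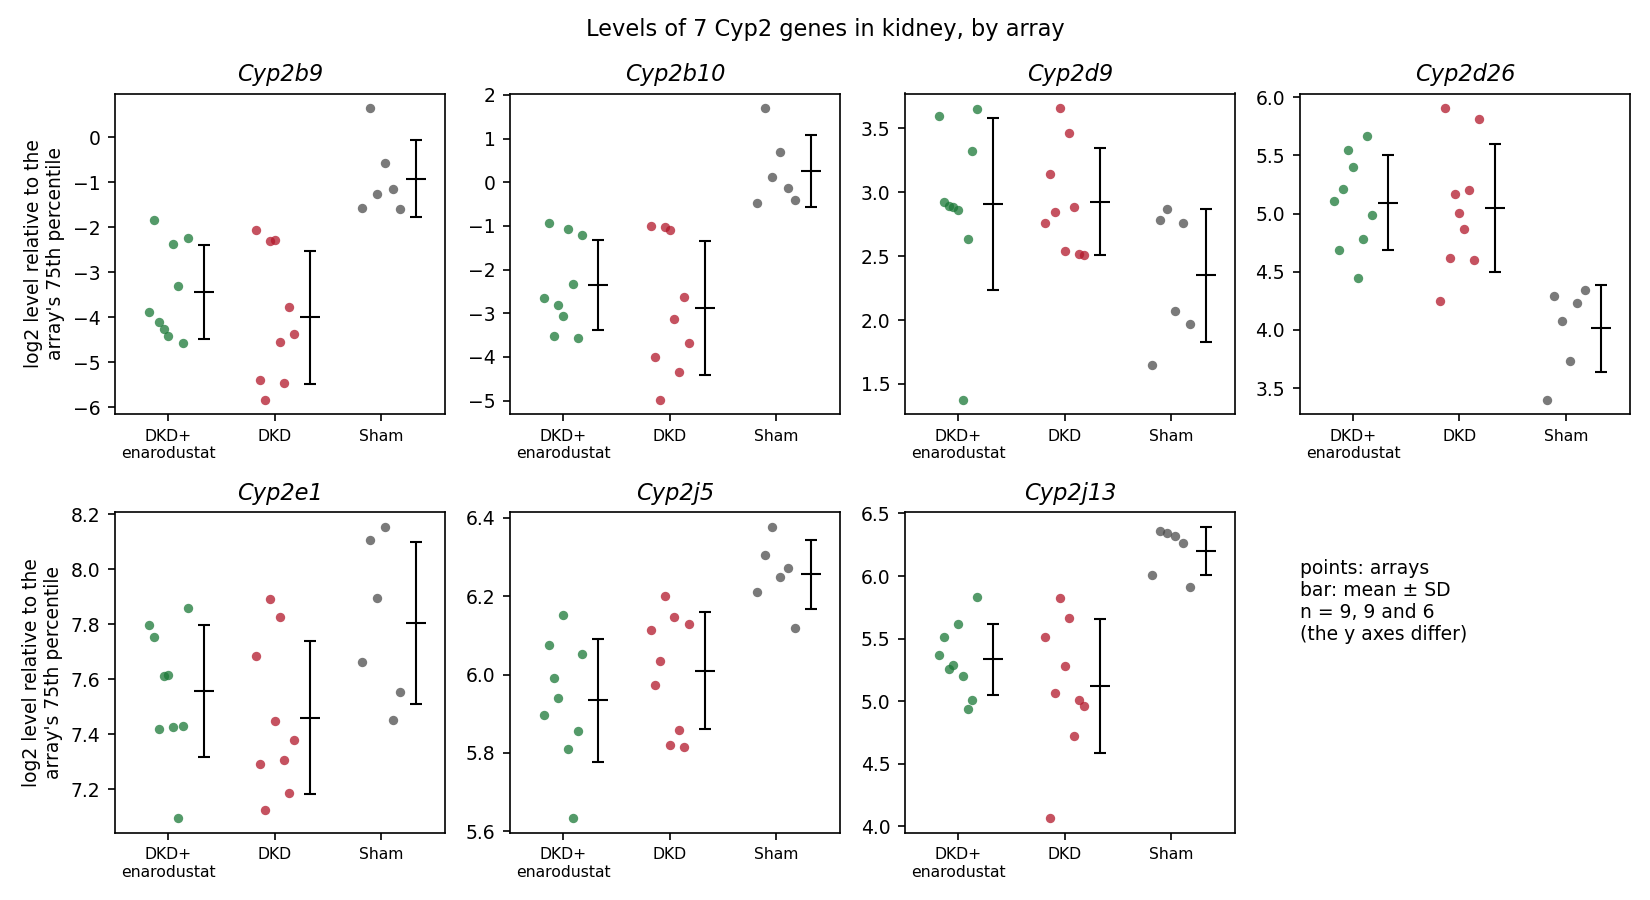
Level of each of the 7 Cyp2 genes on each array (points), as log2 signal relative to the array's 75th percentile, with the group mean and SD beside the points, for DKD+enarodustat (n = 9), DKD (n = 9) and Sham (n = 6); the y axes differ between panels. Cyp2b9, Cyp2b10 and Cyp2j13 lie lower on every array of both diabetic groups than on any Sham array, and Cyp2d26 lies mostly higher.

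Between DKD and Sham kidneys, Cyp2b9, Cyp2b10 and Cyp2j13 were called lower and Cyp2d26 was called higher, while Cyp2d9, Cyp2e1 and Cyp2j5 were not called. That is 3 genes called lower, where 6.13% of all tested genes were, and 1 gene called higher, where 5.47% were. The ranges of the groups lay apart for 3 of the 7, against 3.4% of all genes. As the genes were chosen on these values, nothing is read from the counts. The median log2 difference of the 7 was −0.34, beside −0.01 over all tested genes.

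The Cyp2b genes showed the largest differences of the 7. Cyp2b10 is the classical phenobarbital-induced P450 of mouse liver, where the receptor Nr1i3 switches it on, and Cyp2b9 is a close relative, higher in females than in males in mouse liver. Because both moved together array by array, the RefSeq promoter windows of both are shown, from 250 bases before to 50 after the annotated start, on assembly GRCm38.p6. Capitals mark matches to the motifs searched, which are described after the values.
Cyp2b9, chr7:26173159-26173458, plus strand: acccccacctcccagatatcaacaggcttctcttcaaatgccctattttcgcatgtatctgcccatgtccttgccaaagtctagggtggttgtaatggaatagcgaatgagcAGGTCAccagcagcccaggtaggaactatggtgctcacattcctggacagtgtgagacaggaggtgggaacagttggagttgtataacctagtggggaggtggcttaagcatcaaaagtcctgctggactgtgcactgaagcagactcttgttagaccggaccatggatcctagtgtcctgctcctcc
Cyp2b10, chr7:25897408-25897707, plus strand: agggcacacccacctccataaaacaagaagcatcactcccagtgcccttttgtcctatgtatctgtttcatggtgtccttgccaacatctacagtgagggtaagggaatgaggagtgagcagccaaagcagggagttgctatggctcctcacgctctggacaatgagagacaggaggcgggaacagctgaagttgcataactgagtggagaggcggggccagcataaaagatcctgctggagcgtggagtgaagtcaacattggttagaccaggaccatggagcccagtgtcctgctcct
The windows were identical at 229 of 314 aligned positions (72.9%). A link of this share to the shared movement was not tested.

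The log2 level of Cyp2b9 in DKD kidneys had a lowest value of −5.83, a median of −4.36 and a highest value of −2.06, against −1.59, −1.21 and 0.65 in Sham kidneys. No DKD array reached the lowest Sham array, and 8 of the 9 DKD arrays were well above background. The log2 difference was −3.08 ± 0.60 (SE, n = 9 and 6; 95% interval −4.31 to −1.85), so that Sham signals were 8.47 times the DKD signals, but it was −1.41 with normexp background correction and quantile normalization. For Cyp2b10, the lowest, median and highest log2 levels were −4.98, −3.14 and −0.99 in DKD kidneys and −0.48, −0.01 and 1.70 in Sham kidneys. These ranges did not overlap either, and the log2 difference was −3.13 ± 0.61 (SE; 95% interval −4.38 to −1.88), or −1.86 with normexp and quantile normalization. A further Cyp2b10 probe was well above background on only 2 of 9 DKD arrays, against 6 of 6 Sham arrays, so its difference is not given.

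The DKD arrays did not fall evenly. Cyp2b10 was at −0.99, −1.02 and −1.10 in DKD replicates 1, 4 and 5, and at −2.63 or lower in the other DKD kidneys. Those 3 kidneys were also the highest for Cyp2b9 among DKD kidneys, at −2.06, −2.30 and −2.28. The SD of Cyp2b10 over DKD kidneys was 1.53, larger than that of 99.5% of all tested genes, against 0.83 in Sham kidneys, where it was larger than that of 95.8%. The level differences within slides were −3.96, −2.13 and −3.16 for Cyp2b9 and −3.94, −2.16 and −3.29 for Cyp2b10, DKD minus Sham on slides 1, 2 and 3.

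Across the 24 arrays, deviations of Cyp2b9 and Cyp2b10 from their group means correlated at r = 0.982, as a description. Within groups the r of the levels was 0.967 in DKD+enarodustat, 0.988 in DKD and 0.987 in Sham kidneys. Probe sequences were not analysed here, so hybridisation of both transcripts to the same probe was not tested. The third Cyp2b gene tested, Cyp2b13, was too dim in Sham kidneys for a fall to be seen: it averaged −5.65 ± 0.96 in DKD and −6.04 ± 0.70 in Sham kidneys (SD, n = 9 and 6), well above background on 4 of 9 and 1 of 6 arrays. Outside the family, the genes whose deviations were most like both were Mkrn1 (r = 0.881 with Cyp2b10), Mpped1 (r = 0.870) and 0610031O16Rik (r = 0.834). Mkrn1 encodes a RING-finger protein. These r describe arrays that share slides, and no p is given.

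Of the other Cyp2j and Cyp2e members, Cyp2j13 was the one called. Cyp2j13 belongs to the arachidonic acid epoxygenase subfamily, and its level was 4.06, 5.07 and 5.83 in DKD kidneys (lowest, median, highest), against 5.91, 6.29 and 6.36 in Sham kidneys. The highest DKD array stayed below the lowest Sham array. The log2 difference was −1.08 ± 0.20 (SE; 95% interval −1.49 to −0.67), and the 3 further probes gave −0.73, −1.08 and −1.17, all with ranges apart. Within slides the differences were −1.31, −0.74 and −1.19. Cyp2j5, an arachidonic acid epoxygenase abundant in the mouse proximal tubule, differed little: 5.82, 6.04 and 6.20 in DKD kidneys and 6.12, 6.26 and 6.38 in Sham kidneys. The difference of −0.25 ± 0.08 (SE; 95% interval −0.42 to −0.08) was not called, the ranges overlapped, and every DKD array lay under the Sham mean. It was called with the slide as a block. Its SD was 0.15 in DKD and 0.09 in Sham kidneys, where 9.04% and 7.82% of all tested genes had an SD no larger. In DKD+enarodustat kidneys it was 0.16, where 14.8% of genes had an SD no larger.

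Cyp2e1 oxidises ethanol, acetone and other small molecules and is induced in rodent liver by fasting and diabetes. Its log2 level was 7.13, 7.38 and 7.89 in DKD kidneys (lowest, median, highest) and 7.45, 7.78 and 8.16 in Sham kidneys, and the groups overlapped widely. The difference of −0.34 ± 0.14 (SE; 95% interval −0.63 to −0.05) was not called, and a further probe gave −0.43. Both probes lay lower in DKD on average, by less than the range of either group.

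Of the Cyp2d members, Cyp2d26 was called higher in DKD than in Sham kidneys and Cyp2d9 was not called. Cyp2d26 is a Cyp2d enzyme of the chromosome 15 cluster, and Cyp2d9 is the male-specific testosterone 16-alpha-hydroxylase of mouse liver. Their promoter windows are shown because the subfamily members differed in call and in the arrays that carried the variation.
Cyp2d9, chr15:82452127-82452426, plus strand: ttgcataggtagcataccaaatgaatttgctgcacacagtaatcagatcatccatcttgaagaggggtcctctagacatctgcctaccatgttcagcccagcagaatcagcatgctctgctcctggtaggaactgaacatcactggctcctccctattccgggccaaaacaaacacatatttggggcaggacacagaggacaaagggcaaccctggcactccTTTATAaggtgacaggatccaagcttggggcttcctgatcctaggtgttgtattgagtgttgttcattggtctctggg
Cyp2d26, chr15:82794196-82794495, minus strand: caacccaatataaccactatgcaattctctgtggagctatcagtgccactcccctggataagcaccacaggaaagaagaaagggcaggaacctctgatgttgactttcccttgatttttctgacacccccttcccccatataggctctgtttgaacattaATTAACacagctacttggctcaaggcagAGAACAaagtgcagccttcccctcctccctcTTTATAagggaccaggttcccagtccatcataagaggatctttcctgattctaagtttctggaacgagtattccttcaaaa
The windows were identical at 186 of 347 aligned positions (53.6%). Those of Cyp2d26 and Cyp2d10, whose deviations correlated at r = 0.984, were identical at 54.0% of aligned positions. Windows of unrelated genes were not aligned, and a link of identity to shared variation was not tested.

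Cyp2d26 had log2 levels of 4.25, 5.00 and 5.91 in DKD kidneys (lowest, median, highest), against 3.40, 4.15 and 4.34 in Sham kidneys. All but the lowest DKD array lay above the highest Sham array. The log2 difference was 1.04 ± 0.23 (SE; 95% interval 0.55 to 1.52), a 2.05-fold higher signal in DKD, and 1.08, 1.11 and 0.92 within slides 1, 2 and 3. A further Cyp2d26 probe gave 0.73, and its arrays ranked differently, as given with the correlations. Cyp2d9 had levels of 2.51, 2.84 and 3.66 in DKD kidneys and 1.65, 2.41 and 2.87 in Sham kidneys. Its difference of 0.58 ± 0.28 (SE; 95% interval 0.00 to 1.15) was not called, the ranges overlapped, and all 9 DKD arrays lay above the Sham mean.

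The deviations of the Cyp2d genes from their group means were alike within sets, as far as the brightest probe of each gene shows. The deviations most like those of Cyp2d9 were those of Cyp2d34 (r = 0.982), Cyp2d11 (r = 0.973) and Cyp2d12 (r = 0.926) over 24 arrays, and those most like Cyp2d26 were those of Cyp2d10 (r = 0.984), Car14 (r = 0.840) and E130215H24Rik (r = 0.810). Cyp2d9 and Cyp2d26 correlated with each other at 0.389, and within groups at 0.555 in DKD+enarodustat, 0.121 in DKD and 0.651 in Sham kidneys. Cyp2d12 stood between the sets, at 0.926 with Cyp2d9 and 0.685 with Cyp2d26. The 2 probes of Cyp2d26 disagreed: the further probe correlated at 0.946 with Cyp2d9 and 0.990 with Cyp2d11, but at 0.626 with the brightest Cyp2d26 probe and 0.663 with Cyp2d10. Car14 encodes a membrane-bound carbonic anhydrase. Transcript sequences of the Cyp2d genes were not compared here. Whether 1 probe takes up transcripts of several Cyp2d genes was not tested, so a value may belong to a set and not to the gene named. For Cyp2j5 the most like genes were Cyp2j8 (r = 0.913), the cytochrome b5 gene Cyb5a (r = 0.910) and the proteasome gene Psmd10 (r = 0.905). For Cyp2j13 they were Cyp4b1 (r = 0.902), a P450 of family 4, Gpm6a (r = 0.887) and Hectd3 (r = 0.882). For Cyp2e1 they were Nudt12 (r = 0.861), AA414768 (r = 0.840) and the chaperone gene Hspa8 (r = 0.823).

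**Figure D2:**
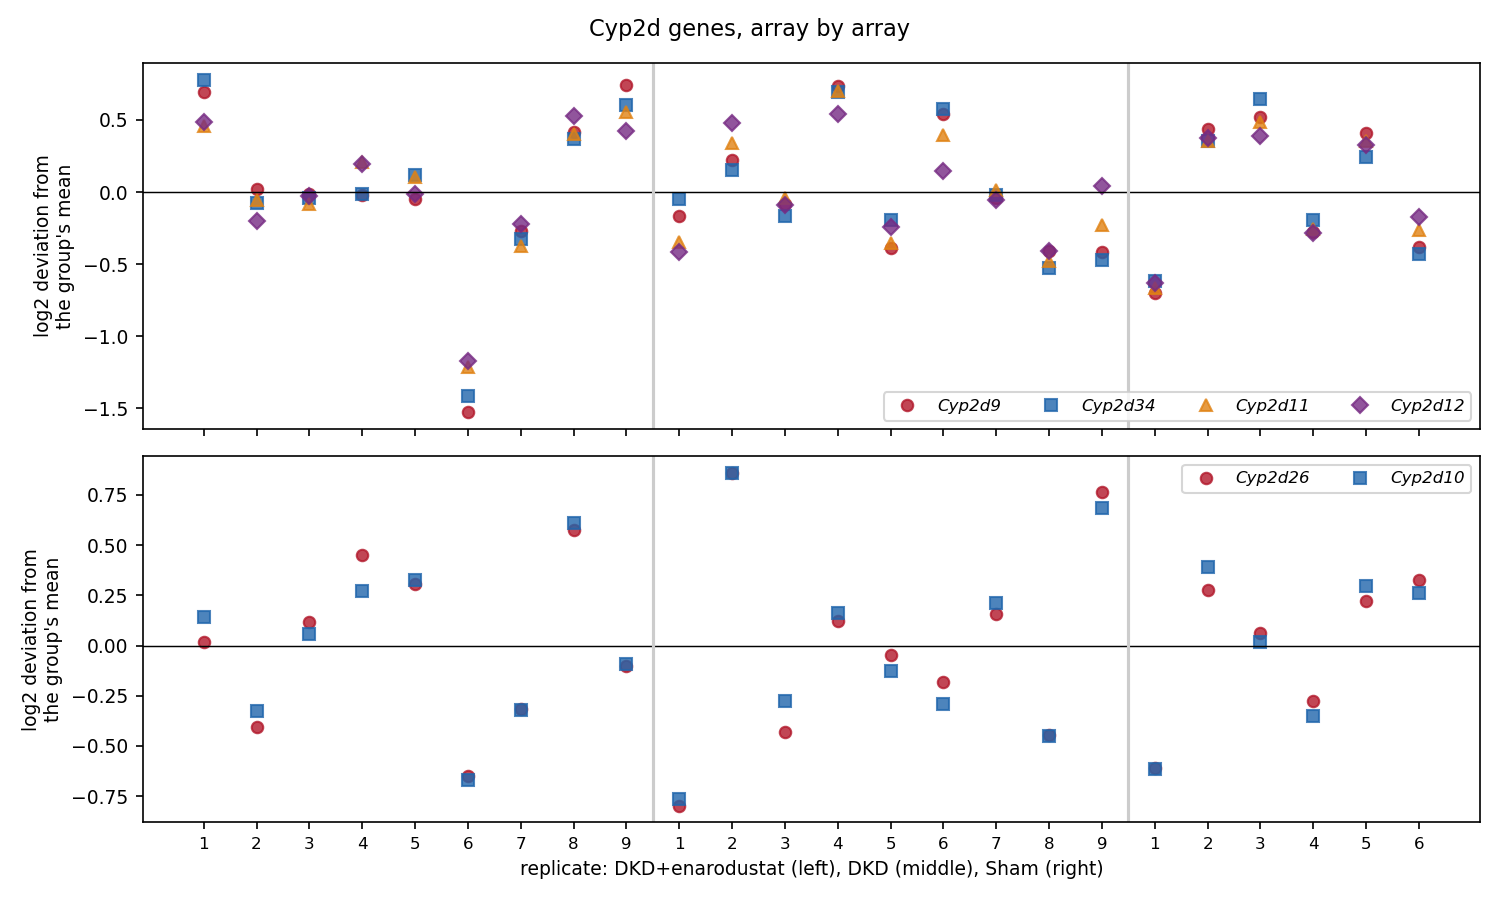
Deviation of each array from its group's mean (log2) for Cyp2d9, Cyp2d34, Cyp2d11 and Cyp2d12 (upper panel) and for Cyp2d26 and Cyp2d10 (lower panel), with arrays along the x axis by group and replicate. The symbols of a set fall nearly on each other on most arrays, and DKD+enarodustat replicate 6 is the lowest array of its group in both panels.

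A search for 6 motifs on both strands of the promoter windows found few matches. TATAAA, the letters of the TATA box, lay in the windows of Cyp2d9, Cyp2d26, Cyp2e1 and Cyp2j5 and in 13.6% of all 32851 windows. The match began at −28, −31 and −31 from the start in the Cyp2d9, Cyp2d26 and Cyp2e1 windows, and at −128 in the Cyp2j5 window. Among these windows, only that of Cyp2e1 held it on the gene's own strand. AGGTCA, a nuclear receptor half-site, lay in those of Cyp2b9 and Cyp2j5 and in 16.3% of all. GTTAAT, an HNF1 half-site, lay in that of Cyp2d26 and in 7.1% of all, as did AGAACA, a steroid receptor half-site, which 19% of all windows hold. ACGTG, the HIF core, lay in that of Cyp2e1 and in 19.6% of all. CAAAGTCCA, an HNF4 element, lay in none of the windows of the 7 genes and in 0.475% of all windows. A match is letters only, and a missing one says only that these letters are not in this window.

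Between DKD+enarodustat and DKD kidneys, 0 of the 7 genes were called by limma and 0 had an unadjusted p under 0.05, where 0.716% of all tested genes were called, and no pair of ranges lay apart, where 0.147% of all genes had ranges apart. The 38 other settings gave 0 calls too, although 2 of them, the deposited table and the stricter filter, held no Cyp2b9 value. The log2 levels of Cyp2b9 were −4.58, −3.88 and −1.83 in DKD+enarodustat kidneys (lowest, median, highest). They overlapped the DKD range, whose highest value was −2.06. The difference was 0.56 ± 0.53 (SE; 95% interval −0.54 to 1.66). Those of Cyp2b10 were −3.57, −2.65 and −0.93, with a difference of 0.53 ± 0.54 (SE; 95% interval −0.59 to 1.64). The intervals hold both no change and a rise of over 1 on the log2 scale. With the slide row in the fit the differences were 1.47 ± 0.72 for Cyp2b9 and 1.58 ± 0.72 for Cyp2b10 (SE), and with normexp and quantile normalization 0.09 and 0.14, none of them called. As all DKD+enarodustat arrays lay in row 2, 1.47 and 1.58 are also the differences from the 3 row 2 DKD arrays alone. DKD+enarodustat replicates 2, 6 and 9 were the highest 3, at −0.93, −1.08 and −1.22 for Cyp2b10, and the same 3 were highest for Cyp2b9.

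The Cyp2d and Cyp2e values of the diabetic groups lay close together. Cyp2d26 had levels of 4.44, 5.11 and 5.67 in DKD+enarodustat kidneys, with a difference from DKD of 0.04 ± 0.21 (SE; 95% interval −0.39 to 0.47). Cyp2d9 had levels of 1.38, 2.89 and 3.65, with a difference of −0.02 ± 0.25 (SE; 95% interval −0.53 to 0.49). Its lowest value is that of replicate 6, and the next array was at 2.64. Cyp2e1 had levels of 7.09, 7.61 and 7.86, with a difference of 0.10 ± 0.13 (SE; 95% interval −0.16 to 0.36).

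Cyp2j5 had levels of 5.63, 5.94 and 6.15 in DKD+enarodustat kidneys, with a difference of −0.08 ± 0.07 (SE; 95% interval −0.23 to 0.08). Cyp2j13 had levels of 4.94, 5.29 and 5.83, with a difference of 0.21 ± 0.18 (SE; 95% interval −0.15 to 0.57). All 4 Cyp2j13 probes lay above 0, at 0.12 to 0.27.

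The sign of the DKD+enarodustat minus DKD difference was not the same on every slide. On slides 1, 2 and 3 it was 1.15, −0.64 and 1.15 for Cyp2b9, 0.96, −0.57 and 1.19 for Cyp2b10, and 0.50, −0.22 and 0.36 for Cyp2j13. Cyp2d9 and Cyp2e1 were likewise negative on slide 2, at −0.85 and −0.17, and positive on slides 1 and 3. Slide 2 holds DKD replicates 4 and 5, 2 of the 3 DKD kidneys with the highest Cyp2b10.

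**Figure D3:**
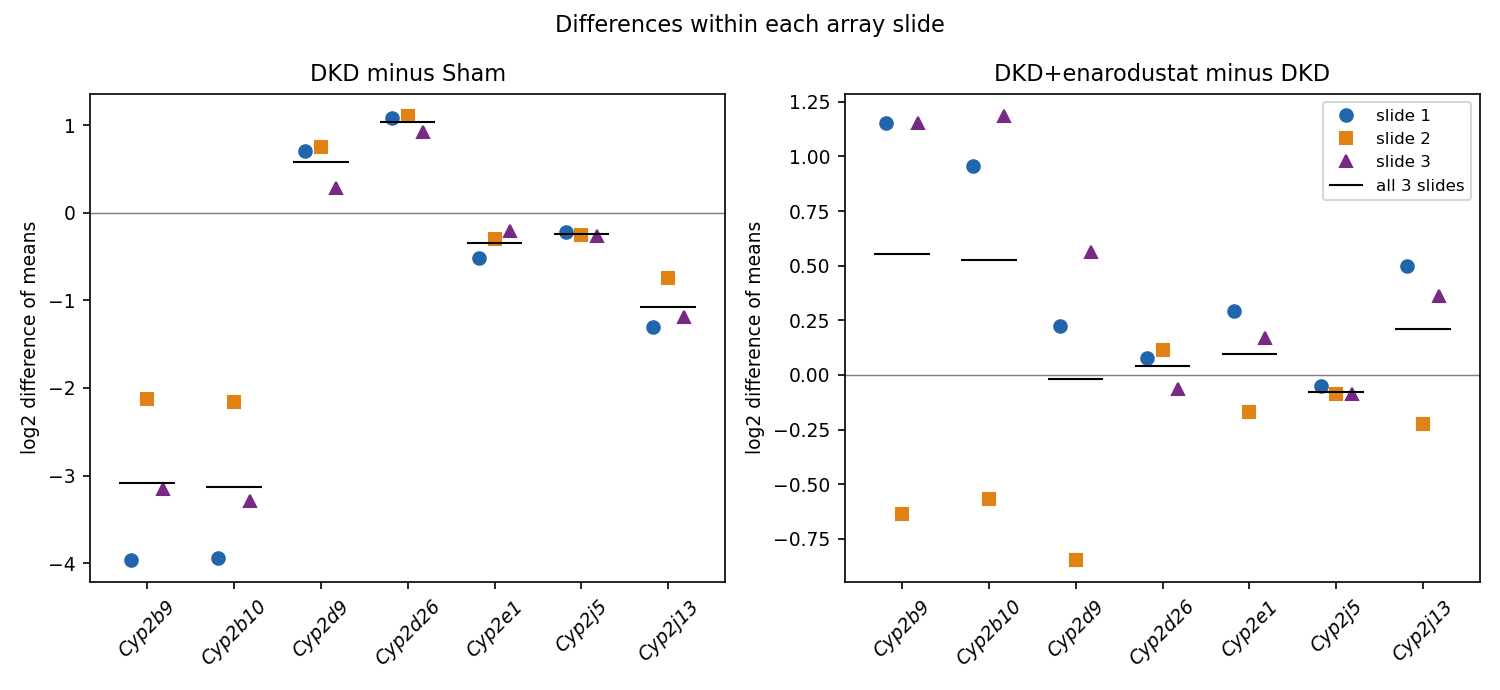
Difference of group means (log2) on each of the 3 slides (symbols) and over all slides (black lines), for DKD minus Sham (left panel) and DKD+enarodustat minus DKD (right panel). On the left the 3 slides share a sign for all 7 genes; on the right slide 2 lies on the other side of 0 from slides 1 and 3 for Cyp2b9, Cyp2b10, Cyp2d9, Cyp2e1 and Cyp2j13.

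Between DKD+enarodustat and Sham kidneys, Cyp2b9, Cyp2b10, Cyp2j5 and Cyp2j13 were called lower (4 of 7, where 6.75% of all genes were) and Cyp2d26 higher (1 of 7, where 8.74% were). At the brightest probe of each gene, ranges lay apart for 4 of the 7, against 4.94% of all genes. Ranges overlapped at the further Cyp2d26 probe (0.65), the dim Cyp2b10 probe and a Cyp2j13 probe at −0.62. Those of the Cyp2j13 probes at −0.90 and −0.84 lay apart. This comparison shares its arrays with the others, so its values stand beside them as no further evidence. The log2 differences were −2.53 ± 0.60 for Cyp2b9, −2.60 ± 0.61 for Cyp2b10, −0.32 ± 0.08 for Cyp2j5, −0.87 ± 0.20 for Cyp2j13 and 1.08 ± 0.23 for Cyp2d26 (SE). Cyp2d9 at 0.56 ± 0.28 and Cyp2e1 at −0.25 ± 0.14 were not called.

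DKD+enarodustat and Sham arrays shared no slide row, so row and group cannot be told apart from these 2 groups alone. Among DKD arrays, the 3 in row 2 averaged −3.94 ± 0.94 for Cyp2b10 and the 6 in row 1 averaged −2.35 ± 1.55 (SD). With the slide row in the fit, the DKD+enarodustat minus Sham difference was −1.15 ± 0.95 for Cyp2b9 and −1.02 ± 0.95 for Cyp2b10 (SE), and of the 7 genes only Cyp2j5 was called. The DKD minus Sham differences with the row were −2.63 ± 0.62 and −2.60 ± 0.62, still called, and −2.63 and −2.60 are also the differences of row 1 DKD arrays from the Sham arrays.

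In order of the group means, Cyp2b9, Cyp2b10, Cyp2e1 and Cyp2j13 ran DKD, DKD+enarodustat, Sham, and Cyp2j5 ran DKD+enarodustat, DKD, Sham. Cyp2d9 ran Sham, DKD+enarodustat, DKD (by medians DKD+enarodustat was above DKD), and Cyp2d26 ran Sham, DKD, DKD+enarodustat. The diabetic neighbours in each order did not differ beyond their spread.

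**Figure D4:**
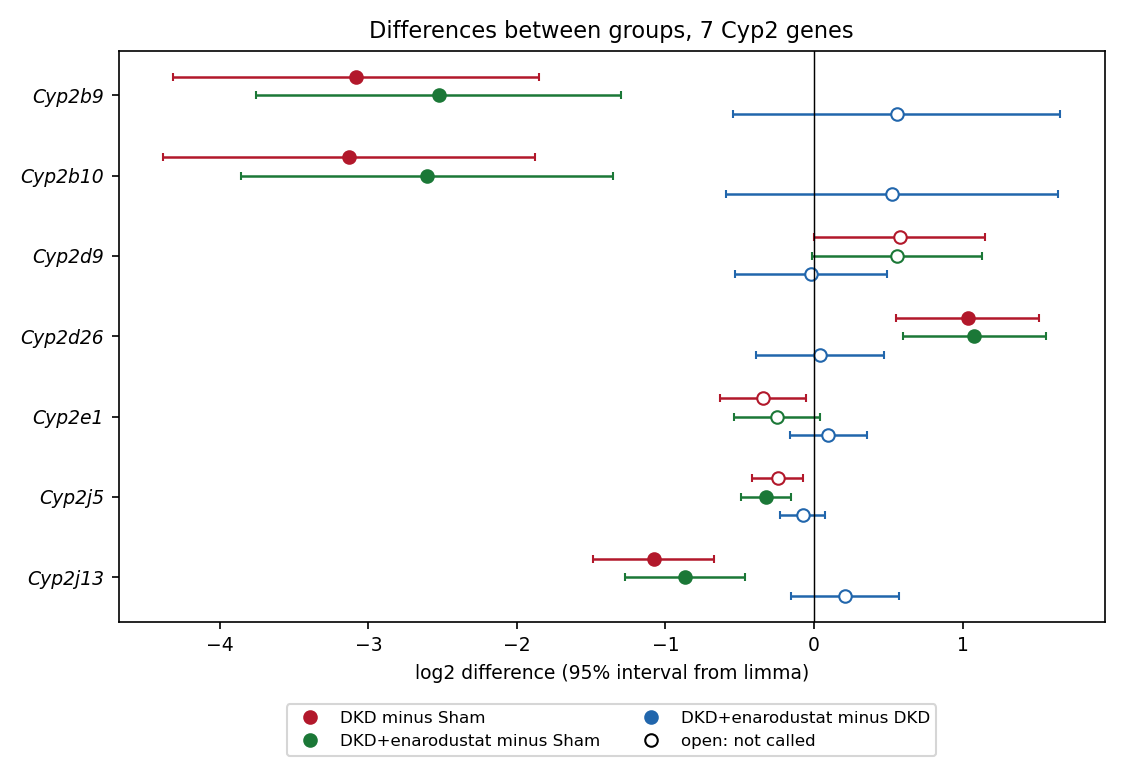
Log2 differences (points) with 95% intervals (lines) for the 7 Cyp2 genes in DKD minus Sham, DKD+enarodustat minus Sham and DKD+enarodustat minus DKD; open points were not called. The DKD+enarodustat minus DKD intervals all include 0, and those of Cyp2b9 and Cyp2b10 are the widest.

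The rest of the family was set beside the 7 as 32 further tested Cyp2 genes of 40 on the array. Between DKD and Sham kidneys, 4 rose and 4 fell, where 5.47% of all tested genes were called higher and 6.13% lower. The other 24 were not called, and the median log2 difference of the 32 was 0.08. The largest rise was that of Cyp2c23, a renal arachidonic acid epoxygenase, at 1.92 ± 0.29 (adjusted p 0.000166, limma): it averaged −0.95 ± 0.70 in DKD and −2.88 ± 0.19 in Sham kidneys (SD), with no overlap. Cyp2d10 rose by 1.06 ± 0.23 (adjusted p 0.00366) and Cyp2d12 by 0.71 ± 0.22 (adjusted p 0.0385). Cyp2s1, a P450 found mainly outside the liver, rose by 0.51 ± 0.15 (adjusted p 0.0234), a call lost without Sham replicate 1 or 3 (adjusted p up to 0.0619, limma). Cyp2d10 and Cyp2d12 belong to the sets of Cyp2d26 and Cyp2d9 given above, and whether they are separate signals was not tested. Of all 9 tested Cyp2d genes, each had a positive difference, and 3 were called higher, where 5.47% of all tested genes were.

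The genes that fell were Cyp2c69, at −1.35 ± 0.24 (adjusted p 0.000637), Cyp2c68, at −1.14 ± 0.22 (adjusted p 0.00123), Cyp2c67, at −0.83 ± 0.22 (adjusted p 0.0149), and Cyp2a4, at −0.70 ± 0.23 (adjusted p 0.0477, limma). The 3 Cyp2c genes are neighbours in sequence and may share signal, which was not tested. Each of their promoter windows, read after their values were seen, holds CAAAGTCCA, as 0.475% of all windows do. The bases around it are nearly the same in the 3 windows, so the 3 matches are not separate observations. Of 11 tested Cyp2c genes beside the 7, only the windows of these 3 were read. Whether the windows of the others hold the same letters, and any link to the falls, was not tested. Cyp2a4, a testosterone hydroxylase of mouse liver, lost its call without any 1 of 17 arrays, among them Sham replicate 3 (adjusted p 0.116). The call of Cyp2d12 was lost without Sham replicate 1 (adjusted p 0.109) and without 7 further arrays, and without Sham replicate 1 the 32 genes had 5 calls in place of 8.

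Between DKD+enarodustat and DKD kidneys, 0 of the 32 were called by limma, where 0.716% of all tested genes were. Of the 32, 1 had an unadjusted p under 0.05. Between DKD+enarodustat and Sham kidneys, 4 were higher, Cyp2c23 at 1.70 ± 0.29, Cyp2d10 at 1.10 ± 0.23, Cyp2d12 at 0.67 ± 0.22 and Cyp2s1 at 0.51 ± 0.15, and 4 were lower, Cyp2c69 at −1.34 ± 0.24, Cyp2c68 at −1.19 ± 0.22, Cyp2c67 at −0.87 ± 0.22 and Cyp2c29 at −0.51 ± 0.12 (SE). Their adjusted p ranged from 0.000389 to 0.042, and with the slide row in the fit 2 of the 32 genes were called. Of all tested genes, 8.74% were called higher and 6.75% lower in that comparison without the slide row. The Cyp2d12 call was lost without any 1 of 9 arrays (adjusted p up to 0.113, limma, without Sham replicate 1).

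**Figure D5:**
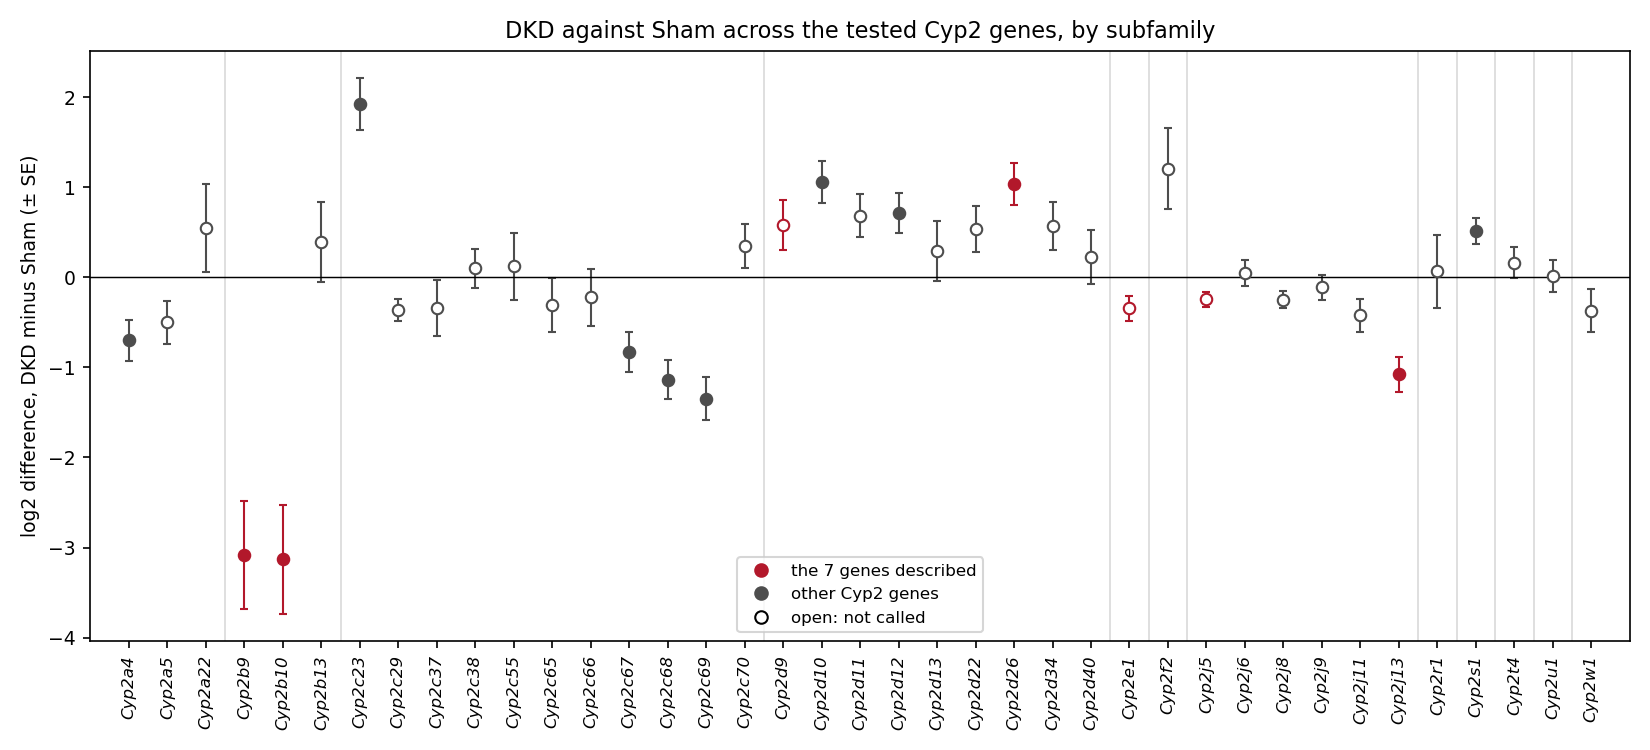
Log2 difference DKD minus Sham with its SE for the 39 tested Cyp2 genes, ordered by subfamily; filled points were called, and the 7 genes described are in red. Cyp2b9 and Cyp2b10 lie lowest, Cyp2c23 highest, and the Cyp2d genes all lie above 0.

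Some genes that supply or regulate P450 enzymes were called between DKD and Sham kidneys, where 6.13% of all tested genes were called lower and 5.47% higher. Of 7 electron partners, Cyb5a fell by 0.41 ± 0.12 on the log2 scale (adjusted p 0.0227, limma), none rose, and the reductase Por was at −0.26 ± 0.12 (adjusted p 0.178). The Cyb5a call was lost without Sham replicate 2 or 3 (adjusted p up to 0.0583, limma). Of 12 genes of heme synthesis and breakdown, Cpox, a late step of heme synthesis, fell by 0.61 ± 0.09 (adjusted p 0.000178), and none rose. Of 14 receptors and factors, Nr1i2, the pregnane X receptor, rose by 0.97 ± 0.22 (adjusted p 0.00513) and Nfe2l2, the oxidant-response factor, by 0.32 ± 0.10 (adjusted p 0.0276). Hnf4a, a proximal tubule and liver factor, fell by 0.26 ± 0.07 (adjusted p 0.0204), a call lost without Sham replicate 2 or 3 (adjusted p up to 0.0664) and under quantile normalization (adjusted p 0.303, limma). The Nfe2l2 call was lost without any 1 of 4 arrays (Sham replicates 1, 3 and 4 and DKD replicate 2; adjusted p up to 0.0648) and with the slide row (adjusted p 0.123, limma). Nr1i3, the receptor that switches on Cyp2b10 in liver, was at 0.52 ± 0.46 (adjusted p 0.542), with −1.95 ± 0.98 in DKD and −2.47 ± 0.63 in Sham kidneys (SD).

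Genes that act on the same substrates moved in both directions. Between DKD and Sham kidneys, 6.13% of all tested genes were called lower and 5.47% higher. Ephx1, the microsomal epoxide hydrolase, rose by 1.07 ± 0.21 (adjusted p 0.00148, limma), and Ephx2, the soluble hydrolase of fatty acid epoxides, fell by 0.42 ± 0.12 (adjusted p 0.0195), of 4 tested. The Ephx2 call was lost without Sham replicate 2 or 3 (adjusted p up to 0.0642, limma). Among 6 tested genes of ethanol and aldehyde oxidation, Adh1 fell by 1.41 ± 0.21 (adjusted p 0.000172) and Cat by 0.28 ± 0.09 (adjusted p 0.0467). The Cat call was lost without any 1 of 13 arrays (adjusted p up to 0.121, without Sham replicate 3) and under quantile normalization (adjusted p 0.422, limma). Of 5 tested Cyp1 and Cyp3 genes, 0 were called by limma and 1 had an unadjusted p under 0.05.

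Of 10 genes known to be male-biased or to serve androgen action in mouse kidney, 7 fell in DKD kidneys and none rose. Of all tested genes, 6.13% were called lower and 5.47% higher. Like the other lists, this one was chosen with earlier results of these arrays known, so its count is a description. The largest falls were those of Srd5a2, the steroid 5-alpha-reductase, by 2.74 ± 0.40 (adjusted p 0.000119, limma), and Gusb, the androgen-induced beta-glucuronidase, by 2.71 ± 0.40 (adjusted p 0.000139). Cyp4a12a fell by 1.68 ± 0.35 (adjusted p 0.00278) and Cyp4a12b by 1.64 ± 0.37 (adjusted p 0.00477). The other 3 that fell were Slco1a1, Odc1 and Acsm3. In DKD+enarodustat against DKD kidneys, 0 of the 63 tested genes on these lists and a list of flavin monooxygenases, 8 lists in all, were called by limma, and 11 had an unadjusted p under 0.05. Of all tested genes, 0.716% were called in that comparison.

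The tissue labels were set against cell type markers. All 11 proximal tubule markers were well above background on every array, and their summed signal relative to the 75th percentile ranged from 901 to 1135 in DKD+enarodustat, 921 to 1287 in DKD and 1116 to 1365 in Sham kidneys. In DKD against Sham, 3 of the 11 were lower (Slc22a6, Slc7a13 and Slc13a3, at −0.75, −0.82 and −0.38) and 1 was higher (Slc5a12, at 0.55). Of 7 distal nephron and collecting duct markers, 4 were higher and Umod was lower, at −0.49. Of all tested genes, 5.47% were called higher and 6.13% lower in DKD against Sham. Of the 24 tested markers of podocytes, endothelium, immune cells, hepatocytes and adrenal cortex, 0 were called by limma in that comparison and 5 had an unadjusted p under 0.05. Apoa1 and Ahsg of liver, Cyp11a1 and Cyp11b2 of adrenal cortex and Adipoq of fat were not well above background on any array. Other markers of these tissues were: 6 of 9 for liver, 3 of 7 for adrenal cortex and 2 of 7 for fat on every Sham array. Fabp4, on the fat list, was higher by 0.70 in DKD than in Sham and by 0.52 in DKD+enarodustat than in DKD, and the endothelial genes Cdh5 and Emcn were higher by 0.43 each in DKD+enarodustat than in DKD. What part these shifts have in the Cyp2 values was not tested.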

How the data were processed

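Total RNA of 24 whole kidneys was labelled with Cy3 and hybridised to Agilent arrays, 1 per mouse. The deposited scanner files hold background-subtracted, single-colour intensity values per spot, made with Feature Extraction 12.1.1.1 per the file headers (11.5.1.1 per the submitters' processing notes, which also name limma). The authors' deposited value table holds 31409 probes on a log2 scale with column medians of 7.54 to 7.56. Its values lay within 0.05 of log2 normexp (offset 50) and quantile values computed from the scanner files for 99.96% of entries, so the scale and the lack of centring are known from the data, and it holds no Cyp2b9 probe.

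Levels were log2 processed signals minus the array's 75th percentile over 59305 non-control spots. Spots of a probe were averaged, after 3671 control spots and spots with an outlier mark were left out. A gene took its brightest probe by mean over all arrays and was tested where 6 or more of the 24 arrays had it well above background. Of 56605 probes, 32994 had a gene name from the accession matched to RefSeq. One limma fit (version 3.58.1, R 4.3.3) over all 24 arrays with group as the only term gave differences, SEs, 95% intervals and Benjamini-Hochberg adjusted p-values over 17736 genes, with 0.05 as the threshold. The fit was tested on simulated data.

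The 7 genes, the gene lists and the markers were chosen with earlier results of these arrays known. Genes named beside the 7 are the other Cyp2 genes past the threshold (up to 4 each way), the list genes past it with the largest differences (up to 4 a list), Por, Nr1i2, Nr1i3, Hnf4a and Ephx2 in any case, and for each of the 7 the 3 genes with the most similar deviations. Slco1a1, Odc1 and Acsm3 fall outside this rule and were named after their values were seen, and 2 genes the rule names are not reported here. Alternatives were other background corrections, normalizations, filters, probe rules, slide and row terms, replicate blocks and leaving out each array. Replicates are separate mice, as the series text gives mice per group.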

Additional observations from a re-analysis of the deposited data

Results flagged for a closer look

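In the DKD+enarodustat group, Cyp2d9 in replicate 6 had a log2 level of 1.38, while the next lowest kidney of the group was at 2.64. The gap was 0.554 of the range of the group, above the 95% limit of 0.493 for 9 samples in Dixon's test, which chance passes in about 1 in 20 groups. The test was run for each of the 7 genes in each of the 3 groups, and no other gene and group passed it. With that many sets, chance alone can give 1 pass. Replicate 6 was also the lowest of its group for Cyp2d26, at 4.44. Without that kidney the DKD+enarodustat minus Sham difference of Cyp2d9 was 0.75 on the log2 scale and was called, and the DKD+enarodustat minus DKD difference was 0.17 and was not.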

How the results depend on the processing

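The 7 genes, the 32 further Cyp2 genes and the 8 lists were recomputed under 38 other settings, of which 24 each left out 1 array, and no call turned its direction. Between DKD and Sham, 4 of the 7 genes were called, 4 to 5 without any 1 array and 0 on each slide alone, where fewer arrays enter. Between DKD+enarodustat and Sham, 5 were called, 5 to 6 without any 1 array, 0 on each slide alone and 1 with the slide row as a term. In DKD+enarodustat minus DKD the counts stayed at 0 for the 7 genes and for the 32, with no Cyp2b9 value in the deposited table or under the stricter filter. With normexp (offset 50) and quantile normalization the log2 difference in DKD minus Sham was −1.41 for Cyp2b9 and −1.86 for Cyp2b10. It was −1.87 for Cyp2b10 in the authors' deposited table. What part the offset has in these smaller differences was not tested. The Cyp2j5 difference in DKD minus Sham became called with the slide as a fixed or random block, with the slide row, with genes above background on all arrays, and without any 1 of 6 arrays. Of the 32 genes, 8 were called in DKD minus Sham, 5 to 8 without any 1 array, and 1, 0 and 0 on slides 1, 2 and 3. In DKD+enarodustat minus Sham, 8 were called, 7 to 10 without any 1 array, 0 on each slide alone and 2 with the slide row.

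For the lists in DKD minus Sham, each slide alone gave 0 calls in all. Electron partners had 1 call, 3 with normexp and quantile normalization, 2 with quantile normalization, the deposited table or the mean over probes, and 0 to 1 without any 1 array. Heme genes had 1 call, 3 with normexp and quantile normalization or the deposited table, 2 with quantile normalization, the stricter filter, the mean over probes, either slide block or the slide row, and 1 to 3 without any 1 array. Ethanol and aldehyde genes had 2 calls, 1 with no filter or with only the compared groups in the fit, and 1 to 3 without any 1 array. Receptors and factors had 3 calls and 1 to 3 without any 1 array, with 1 call without Sham replicate 3. Epoxide hydrolases had 2 calls and 1 to 2 without any 1 array, with 1 without Sham replicate 2 or 3. Male-biased genes had 7 calls without any 1 array. The cause of these shifts was not tested. Among the named genes outside the 7, the 14 settings that keep all arrays or whole slides kept 424 values on their side of the threshold and moved 122 under it.

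The labels number the replicates in each group. Deviations of same-numbered kidneys correlated over 0.1 in 4 of 9 DKD+enarodustat and DKD pairs. The same held for 3 of 6 DKD and Sham pairs and 3 of 6 DKD+enarodustat and Sham pairs. Kidneys with different numbers were not compared, so this check cannot decide whether the numbers pair the kidneys. With the replicate block, 5 of the 32 Cyp2 genes and 0 electron partners were called in DKD minus Sham, and no call on the 7 genes changed. Over all genes, DKD+enarodustat minus DKD had 127 calls, 71 without DKD+enarodustat replicate 8, 82 without DKD+enarodustat replicate 4 or DKD replicate 7, 84 without DKD+enarodustat replicate 5 or 6, 47 with only the compared groups in the fit, 66 with the replicate block, 83 with no filter and 20 with the slide row, and DKD+enarodustat minus Sham had 2748 calls and 889 with the slide row. The share of higher calls in DKD+enarodustat minus DKD was 85.0%, and 70.1% with normexp and quantile normalization, 73.9% with quantile normalization and 69.1% in the deposited table. Normexp on mean spot signals was planned and not run, since the columns used here hold median spot signals. Probes near background, as for Cyp2b9 in DKD kidneys, give less certain levels.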
